A study of Mus musculus with 32 samples.

Results

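Pdgfa, Fgfbp1 and Pla2g10 are genes for secreted proteins that were picked by name, because earlier results of these data had shown their levels to differ between the mouse sets and to move little with treatment. All 3 genes were found in the table of 23517 mouse genes, and all 3 passed the filter on low counts in every comparison. The material was Lgr5-EGFP-positive cells sorted from colonoids, which are epithelial organoids grown in Matrigel and L-WRN medium from crypts of the proximal colon. The donors were Lgr5-EGFP-IRES-CreERT2 mice. Each of 8 mice gave an untreated culture and a culture that received 250 nM bethanechol (Bch, a muscarinic receptor agonist) daily for 4 days. This made 4 groups of 4 mice: untreated BR1-BR4, Bch-treated BR1-BR4, untreated BR7-BR10 and Bch-treated BR7-BR10. All groups carried the same reporter allele, and no group carried a receptor deletion. No age was given beyond that the mice were matched for it.

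The labels set BR1-BR4 and BR7-BR10 apart in several ways at once. The BR1-BR4 mice were labelled male, their source was named as sorted Lgr5+ cells, and their RNA was isolated with the RNeasy Plus Micro kit. The BR7-BR10 libraries carried no sex on their labels, named colonic organoids as their source, and used the RNeasy Mini kit, while the description of the series counted 4 female and 4 male mice. Sex, RNA kit and named source therefore cannot be told apart, and a difference between the sets is called a set difference below. Cells were counted into 1 pool per culture, of 3000 cells in most cases and of 2361 to 13114 overall. The 2 technical replicates of each culture were summed, which left 16 sums of 557512 to 4050342 unique molecular identifiers (UMIs, counted cDNA molecules). Untreated BR3 was the shallowest sum. Levels are given as CPM, which are UMIs scaled to a library total of 1000000 with the trimmed mean of M-values (TMM). Reads were taken from the 3′ part of transcripts without a length correction, so levels are compared between samples and not between genes.

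PDGF-A, the product of Pdgfa, forms dimers that bind the receptor PDGFRα, which in the gut sits mainly on mesenchymal cells beneath the epithelium. Epithelial PDGF-A is known for guiding the mesenchymal clusters that shape villi during development. FGF-binding protein 1, the product of Fgfbp1, releases fibroblast growth factors from heparan sulphate in the extracellular matrix and so makes them available to their receptors. Pla2g10 encodes group X secreted phospholipase A2, which cuts fatty acids such as arachidonic acid from phospholipids and thereby feeds the synthesis of prostaglandins and other eicosanoids. It is found in the colonic epithelium. Fewer cells that express a gene and less RNA per cell cannot be told apart in pooled cells.

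In the GENCODE M21 annotation of GRCm38, all 3 genes lie on the minus strand. Pdgfa spans chr5:138976014-138997370 and has 4 coding transcripts, which encode proteins of 196 or 211 residues. Fgfbp1 is a compact gene at chr5:43978858-43981779 whose 3 coding transcripts all encode 251 residues. Pla2g10 spans chr16:13715057-13730983, and its 2 coding transcripts encode 151 or 144 residues. The counts were summed per gene, so they do not separate these isoforms. Of the 65-base sequences in the last 500 bases of their transcripts, 0 of 1327 for Pdgfa, 0 of 441 for Fgfbp1 and 0 of 438 for Pla2g10 occurred in a transcript of another gene. Antisense genes overlap Pdgfa (6330403L08Rik, 93 UMIs over all sums) and Pla2g10 (Pla2g10os, 278 UMIs). Since the use of strand in counting was not given in the sources used here, their reads cannot be separated from those of their partners with certainty.

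Sequences from the RefSeq start windows of Fgfbp1 and Pdgfa in GRCm38.p6 are shown because these genes differed in the same direction between the sets. They are written 5′ to 3′ on the minus strand and hold only the leading bases of a window that lie outside annotated exons. The Fgfbp1 sequence lies ahead of the annotated gene. The Pdgfa sequence lies within the annotated span of Pdgfa, whose 5′ end is at 138997370. In the Fgfbp1 sequence, capitals mark a CCAAT box read on the other strand (ATTGG), 105 bases before the RefSeq start, and a TATA box (TATAAA), 3 bases after it but ahead of the GENCODE starts. The Pdgfa sequence holds none of the searched motifs. The RefSeq window of Pla2g10 begins within an annotated exon and is not shown.
Fgfbp1, chr5:43981780-43982049: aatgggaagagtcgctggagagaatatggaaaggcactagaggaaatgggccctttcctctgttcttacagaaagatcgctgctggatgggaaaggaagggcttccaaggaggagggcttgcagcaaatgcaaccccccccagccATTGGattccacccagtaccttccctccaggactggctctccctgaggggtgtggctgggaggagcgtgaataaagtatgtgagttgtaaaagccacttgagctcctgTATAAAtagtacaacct
Pdgfa, chr5:138995038-138995194: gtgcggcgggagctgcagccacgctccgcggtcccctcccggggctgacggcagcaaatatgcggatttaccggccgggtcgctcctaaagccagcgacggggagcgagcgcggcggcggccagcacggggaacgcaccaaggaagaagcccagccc

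Short motifs were searched on both strands of the full 300-base windows. The TATA box letters were found in Fgfbp1 alone among the 3 genes, and in 13.6% of all 32817 windows of that length. GC boxes (GGGCGG, 35.6% of windows) were found in Pdgfa and in Pla2g10, and CCAAT (37.4% of windows) in Fgfbp1 and in Pla2g10. The letters of an AP-1 site (TGANTCA, 7.81% of windows), of a TCF/LEF site (CTTTGAT, 3.73%) and of an E-box (CACGTG, 7.15%) were in none of the windows of these genes. No searched motif was shared by all 3. A match in such a window is a description of its letters and not a site in use.

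All 3 genes were more abundant in the cells of BR7-BR10 than in those of BR1-BR4, by about the same factor, with and without Bch. Pdgfa was at 96.3, 92.9, 128 and 113 CPM in the untreated cells of BR1, BR2, BR3 and BR4. In untreated BR7, BR8, BR9 and BR10 it was at 268, 218, 275 and 236 CPM. The lowest of the BR7-BR10 values was 1.71 times the highest of the BR1-BR4 values. The group means were 107 ± 16.0 and 249 ± 26.9 CPM (SD, n = 4 mice each), and the fitted set difference was 1.22 on the log2 scale (SE 0.13), a fold of 2.34. With Bch, Pdgfa was at 109, 84.3, 75.0 and 111 CPM in BR1-BR4 and at 255, 215, 210 and 172 CPM in BR7-BR10. These groups did not overlap either, with means of 94.8 ± 17.9 and 213 ± 34.1 CPM.

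Fgfbp1, the growth factor carrier, was at 133, 108, 107 and 92.4 CPM in untreated BR1, BR2, BR3 and BR4. It was at 277, 211, 268 and 219 CPM in untreated BR7, BR8, BR9 and BR10. Every BR7-BR10 mouse was again above every BR1-BR4 mouse, with means of 244 ± 33.6 against 110 ± 17.0 CPM. The set difference was 1.13 on the log2 scale (SE 0.14), a fold of 2.18. In Bch-treated cells the levels were 149, 94.5, 99.5 and 97.9 CPM in BR1-BR4 and 250, 199, 206 and 271 CPM in BR7-BR10. The gap was narrower here, because BR1 stood above its group at 149 CPM, but the groups did not overlap.

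Pla2g10, the secreted phospholipase, was counted with the fewest molecules of the 3 genes. Its untreated levels were 51.6, 58.9, 50.7 and 60.4 CPM in BR1, BR2, BR3 and BR4, and 134, 99.3, 121 and 102 CPM in BR7, BR8, BR9 and BR10. The means were 55.4 ± 4.98 and 114 ± 16.3 CPM, and the set difference was 1.01 on the log2 scale (SE 0.16), a fold of 2.02. With Bch, the levels were 62.0, 65.4, 48.5 and 69.8 CPM in BR1-BR4 and 126, 87.8, 98.4 and 132 CPM in BR7-BR10. The difference between the sets was smaller in these treated cells, at 0.84 on the log2 scale, and the lowest BR7-BR10 value was 1.26 times the highest BR1-BR4 value.

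**Figure D1:**
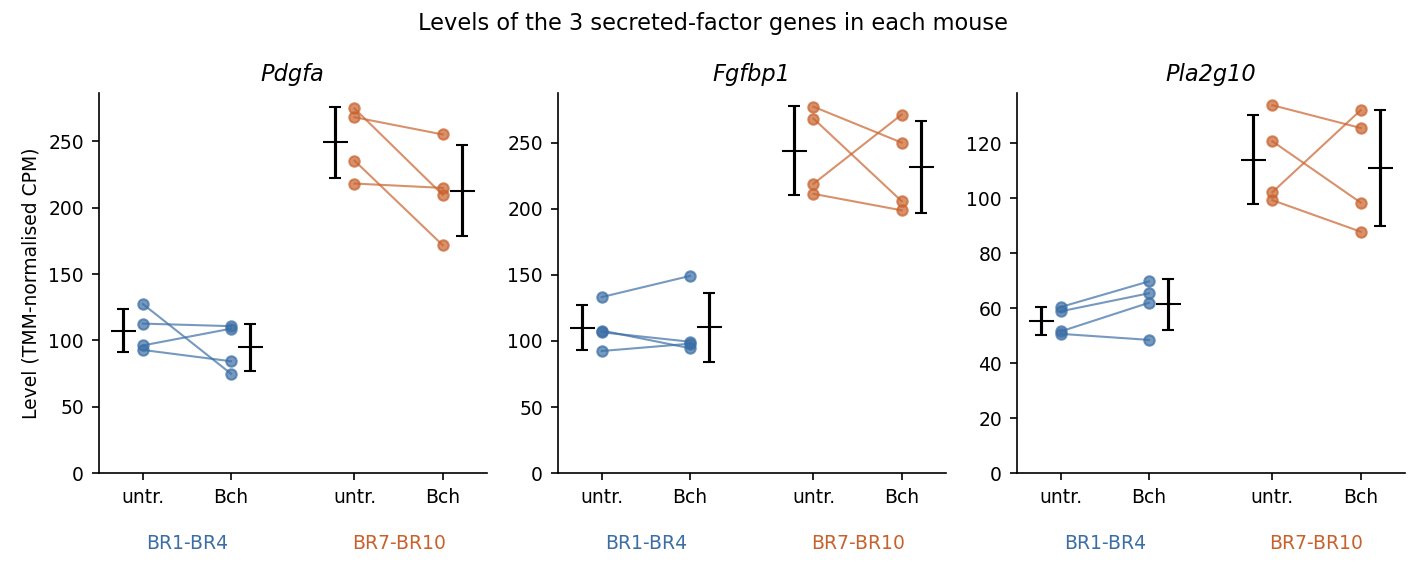
Level of each gene (TMM-normalised CPM, linear axis from 0, a separate scale per panel) in untreated and Bch-treated (Bch) cells, with a line joining the samples of each mouse and black bars for the mean ± SD of 4 mice. For all 3 genes the BR7-BR10 mice (orange) lie above the BR1-BR4 mice (blue) in both treatments, while the lines between treatments run in both directions except for Pdgfa in BR7-BR10, where all 4 fall.

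Since these genes were chosen for this difference, it is described here and not tested. As background, 4.6% of the 9159 genes tested between the untreated sets had all 4 BR7-BR10 levels above all 4 BR1-BR4 levels, and 0.7% of 10280 genes had all 8 sums of BR7-BR10 above all 8 of BR1-BR4. The test across genes (edgeR's quasi-likelihood test with Benjamini-Hochberg adjustment) called 0.972% of the 9159 genes higher and 0.666% lower in BR7-BR10, which is 150 genes in all. That count fell to 74 without BR2, 80 without BR4, 92 without BR9, 93 without BR7, and 97 without BR3 or BR8. Leaving out any 1 mouse kept the set difference between 1.17 and 1.30 on the log2 scale for Pdgfa, between 1.04 and 1.24 for Fgfbp1, and between 0.93 and 1.07 for Pla2g10.

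The depth behind these levels differed between genes and samples. Pdgfa had 73 to 918 UMIs per sum, Fgfbp1 61 to 849 and Pla2g10 29 to 375. Untreated BR3 held the lowest number for each gene. The counting error of an individual level was thus 3.30% to 11.7% for Pdgfa and 5.16% to 18.6% for Pla2g10. The technical replicates of a culture differed by at most 1.17-fold for Pdgfa and 1.28-fold for Fgfbp1. For Pla2g10 they differed by up to 1.78-fold, in untreated BR3, where the replicates held 18 and 11 UMIs. From technical replicate 1 alone the set differences on the log2 scale were 1.31, 1.14 and 0.90 for Pdgfa, Fgfbp1 and Pla2g10, and from technical replicate 2 alone they were 1.15, 1.09 and 1.10. The set difference was thus present in either technical replicate, and these are draws from the same RNA and not further mice.

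The Bch changes of the 3 genes were small beside the set difference and had no common sign. For Pdgfa, the ratio of treated to untreated cells in BR1, BR2, BR3 and BR4 was 1.13, 0.909, 0.591 and 0.983. It was lower with Bch in 3 of 4 mice, with a fitted change of -0.15 on the log2 scale (SE 0.13, approximate 95% interval -0.40 to 0.11). Without BR3, the shallowest culture, this change was 0.0092. In BR7, BR8, BR9 and BR10 the ratio was 0.952, 0.985, 0.764 and 0.731. Pdgfa was therefore lower in 4 of 4 mice of this set, as were 5.61% of the 9515 genes tested. The fitted change was -0.24 (SE 0.14, interval -0.50 to 0.031), and it lay between -0.30 and -0.15 when any 1 of these mice was left out.

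For Fgfbp1 the ratio was 1.12, 0.877, 0.934 and 1.06 in BR1, BR2, BR3 and BR4, higher in 2 mice and lower in the other 2. The fitted change was -0.00057 on the log2 scale (SE 0.12, interval -0.23 to 0.23). In BR7, BR8, BR9 and BR10 the ratio was 0.902, 0.941, 0.768 and 1.24, and the fitted change was -0.072 (SE 0.14, interval -0.34 to 0.20). BR9 and BR10 thus lay on opposite sides of no change, and without BR9 the value became 0.027.

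Pla2g10 had ratios of 1.20, 1.11, 0.957 and 1.15 in BR1, BR2, BR3 and BR4, higher with Bch in 3 of 4 mice. The fitted change was 0.16 on the log2 scale (SE 0.15, interval -0.13 to 0.45). In BR7, BR8, BR9 and BR10 the ratios were 0.939, 0.886, 0.817 and 1.29, lower in 3 of 4 mice, with a fitted change of -0.040 (SE 0.15, interval -0.33 to 0.25). Without BR9 this value turned to 0.041. The changes in BR7-BR10 minus those in BR1-BR4 were -0.084 (SE 0.18) for Pdgfa, -0.070 (SE 0.18) for Fgfbp1 and -0.20 (SE 0.20) for Pla2g10. For all 3 genes the intervals reach to both sides of no change in each set, and changes within them were not detectable with 4 mice.

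**Figure D2:**
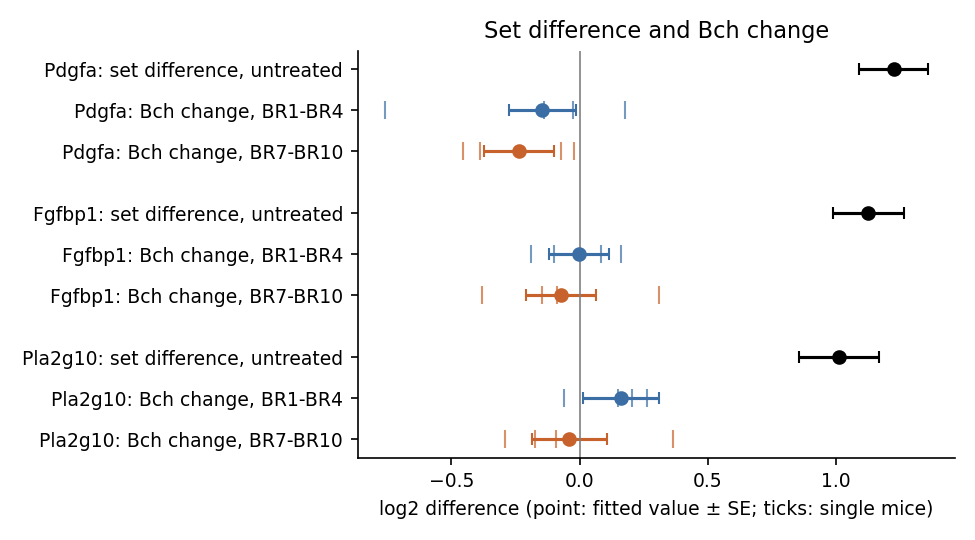
Fitted log2 differences with their SE for the untreated set difference (BR7-BR10 minus BR1-BR4, black) and for the Bch change in each set (blue BR1-BR4, orange BR7-BR10), with short ticks for the log2 ratios of individual mice. The set differences lie between 1.01 and 1.22, and the Bch changes between -0.24 and 0.16 with mice on both sides of 0 in 5 of the 6 cases.

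Across all genes, few passed the test for Bch. In BR1-BR4, 2 of 9509 genes (0.021%) were called and 734 had an unadjusted p under 0.05, and DESeq2 called 14. The edgeR count was 0 without BR1 or BR2, 5 without BR3 and 19 without BR4. In BR7-BR10, edgeR's quasi-likelihood test called 0 of 9515 genes (0%), with 360 at an unadjusted p under 0.05, and DESeq2 also called 0. There the edgeR count was 3 without BR8, 4 without BR9 and 1 without BR10. For the difference of the changes between sets, 0 of 10280 genes (0%) were called by either tool and 451 had an unadjusted p under 0.05.

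Ordered by level, the 4 groups fell into the same upper and lower pair for each gene. For Pdgfa the order from the lowest was Bch-treated BR1-BR4, untreated BR1-BR4, Bch-treated BR7-BR10 and untreated BR7-BR10. The neighbours within a set overlapped and those across the sets did not. Fgfbp1 had means of 110 ± 17.0 and 110 ± 26.0 CPM in untreated and treated BR1-BR4, and of 231 ± 34.9 and 244 ± 33.6 CPM in treated and untreated BR7-BR10. Pla2g10 was lowest in untreated BR1-BR4, at 55.4 ± 4.98 CPM, followed by 61.4 ± 9.19, 111 ± 21.2 and 114 ± 16.3 CPM in treated BR1-BR4, treated BR7-BR10 and untreated BR7-BR10. In both genes the treatments of a set overlapped as well.

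Within a set, the levels of the 3 genes were weakly related, while the Bch ratios of Fgfbp1 and Pla2g10 varied alike. After the mean of each set was subtracted from the log2 levels, Pearson's r over the 16 sums was 0.21 between Pdgfa and Fgfbp1, 0.20 between Pdgfa and Pla2g10, and 0.38 between Fgfbp1 and Pla2g10. Without this centring the values were 0.90, 0.89 and 0.92, which is carried by the set difference that chose the genes. The sums come in pairs from 8 mice and share their library depth, so these values are descriptions. For the log2 ratios of treated to untreated cells over the 8 mice, r was 0.86 between Fgfbp1 and Pla2g10, 0.16 between Pdgfa and Fgfbp1 and 0.21 between Pdgfa and Pla2g10. Both genes of a pair were measured in the same libraries here, and Fgfbp1 ranked 55 among 5118 genes by likeness to Pla2g10. In BR7, BR8 and BR9 all 3 genes were lower with Bch, whereas in BR10 Fgfbp1 and Pla2g10 were higher and Pdgfa was lower.

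**Figure D3:**
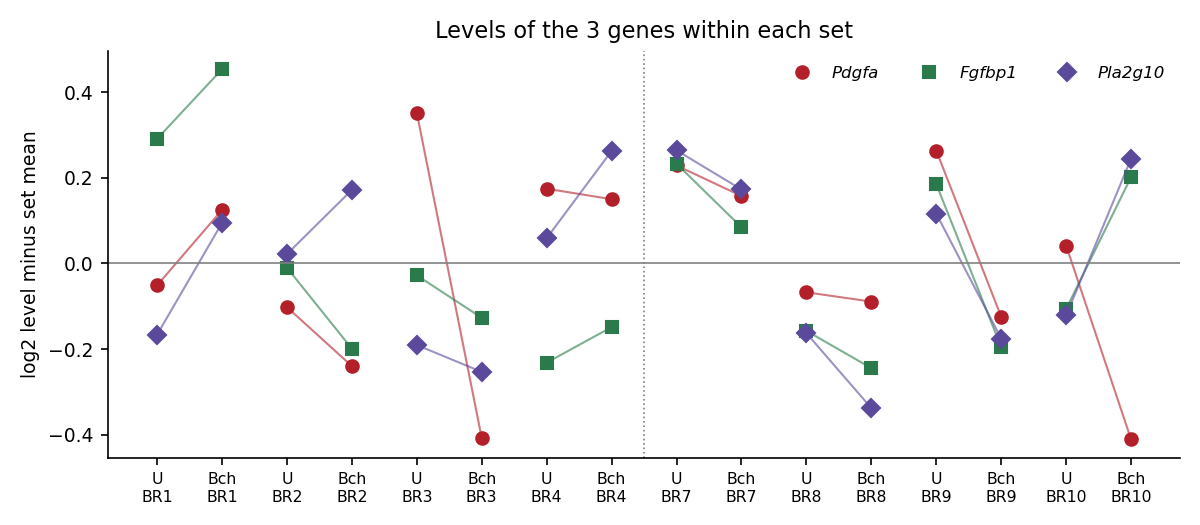
Log2 level of each gene minus its mean in the set of the mouse (0 on the vertical axis), for untreated (U) and Bch-treated (Bch) cells of each mouse, with a line joining the 2 samples of a mouse. The 3 genes lie close together in BR7, BR8 and BR9 and apart in treated BR10. In BR1-BR4 they lie apart in most samples, among them untreated BR1, BR3 and BR4 and treated BR2.

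The genes whose levels within sets were most like those of Pdgfa, among 5118 genes with a mean of at least 20 CPM, were Mxd4 (r = 0.79), Tmed4 (0.78) and Slc25a17 (0.76). Mxd4 encodes a partner of MAX and Tmed4 a protein of vesicle transport. For Fgfbp1 they were Atp5k (0.92), Phgr1 (0.91) and Aldoc (0.90), of which Atp5k encodes a subunit of ATP synthase and Aldoc a glycolytic aldolase. For Pla2g10 they were Cmpk1 (0.82), Dctn3 (0.82) and Txndc17 (0.82). These correlations are over 16 sums that are not independent, and they are the highest of many.

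The other ligand and receptor genes of the PDGF system were scarce in these cells. Among the ligands, Pdgfb had group means of 0.70 to 2.53 CPM, Pdgfc of 0.20 to 0.68 CPM and Pdgfd of 0.33 to 0.65 CPM, which is near or below the level that 3 UMIs give in a sum (0.741 to 5.38 CPM). The receptor gene Pdgfrb had group means of 0.19 to 0.92 CPM, and Pdgfra was not analysed here. Pdgfa was thus the PDGF ligand gene with an ample count. Of the 15 genes listed for the system, 4 were tested between the untreated sets, and of the 3 besides Pdgfa 0 passed. Over all 9159 genes 1.64% passed, so this count says nothing particular about the list. The 3 were protease genes, with group means of 42.5 to 47.2 CPM for St14, 13.6 to 18.5 CPM for Pcsk7 and 9.90 to 15.1 CPM for Furin. Furin, which cleaves many proproteins, differed by -0.070 on the log2 scale (SE 0.34), Pcsk7 by 0.40 (SE 0.29) and St14 by -0.029 (SE 0.20). With Bch, Furin differed by 0.43 (SE 0.31) in BR1-BR4 and by 0.64 (SE 0.30) in BR7-BR10, with adjusted p = 0.828 and 0.999. Pcsk7 had values of 0.35 (SE 0.28) and -0.10 (SE 0.26).

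Of the FGF system, 16 of 44 listed genes were tested between the untreated sets, and 0 of the 15 besides Fgfbp1 passed. Over all genes 1.64% passed, so this count says nothing particular about the list. Of the 15, 4 had a higher and 11 a lower fitted level in BR7-BR10. The other FGF-binding protein gene, Fgfbp3, had group means of only 1.80 to 3.86 CPM. Among the receptors, Fgfr2, which takes up FGF signals in many epithelia, had the highest counts at 18.5 ± 6.49 CPM in untreated BR1-BR4 and 9.99 ± 3.97 CPM in untreated BR7-BR10. Its difference of -0.81 on the log2 scale (SE 0.33) had an adjusted p of 0.249. Fgfr4 had group means of 2.57 to 4.97 CPM, Fgfr3 of 1.08 to 1.82 CPM and Fgfr1 of 0 to 0.87 CPM. The syndecan Sdc1, a heparan sulphate carrier, differed by -0.28 (SE 0.13, adjusted p = 0.354), and the glypican Gpc4 by -0.54 (SE 0.30). Neither passed. With Bch, 0 of the 17 and 15 tested genes passed in BR1-BR4 and BR7-BR10, beside 0.021% and 0% of all genes. The ligand gene Fgf1 had values of -1.07 (SE 0.50) and -0.63 (SE 0.45). In BR1-BR4, Sdc1 had a value of -0.26 (SE 0.10) and Agrn, which encodes the heparan sulphate proteoglycan agrin, of -0.71 (SE 0.43). In BR7-BR10, where it had too few counts to be tested, Agrn was at 2.26 ± 1.01 CPM untreated and 6.06 ± 0.63 CPM with Bch, and the difference of its changes between the sets was 2.18 (SE 0.66), which did not pass. The feedback gene Dusp6 had values of 0.57 (SE 0.37) in BR1-BR4 and 0.60 (SE 0.35) in BR7-BR10, and Spry2 of -0.52 (SE 0.38) and 0.42 (SE 0.32).

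The phospholipase and eicosanoid genes were divided in direction. Of 24 tested genes of the 58 listed, 1 of the 23 besides Pla2g10 passed between the untreated sets, beside 1.64% of all genes. Of these 23, 12 had a higher and 11 a lower fitted level in BR7-BR10. At an unadjusted p under 0.05 there were 4 higher and 3 lower. The 4 were Cbr1 (0.38), Ptgr1 (0.50), Mgst3 (0.29) and Lpcat1 (0.46, all on the log2 scale), whose values were seen before they were named. The 3 lower were Pnpla8 (-0.58) and, as described below, Hpgds and Pla2g12a. The gene that passed was Hpgds, the haematopoietic prostaglandin D synthase gene, at 76.5 ± 29.2 CPM in BR1-BR4 and 31.2 ± 7.07 CPM in BR7-BR10. It fell by 1.26 on the log2 scale (SE 0.24, adjusted p = 0.00471), and its adjusted p stayed between 8.18e-05 and 0.0245 when any 1 mouse was left out. In the Bch-treated cells the value was -1.22 with an adjusted p of 0.0707. Pla2g12a, another secreted phospholipase gene, was at 151 ± 18.3 CPM in untreated BR1-BR4 and 109 ± 10.3 CPM in untreated BR7-BR10. Its 4 BR7-BR10 levels were below its 4 BR1-BR4 levels, as for 3.44% of all tested genes, and its difference of -0.47 (SE 0.13) had an adjusted p of 0.0683. Over the treated cells, where the means were 138 ± 8.32 and 86.9 ± 16.0 CPM, the difference was -0.66 with an adjusted p of 0.00516. This comparison of the treated cells, like that for Hpgds, was chosen after seeing the data. In both treatments the mean of Pla2g12a was thus lower in BR7-BR10 and that of Pla2g10 was higher.

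Pla2g5 was at 19.8 ± 2.70 CPM in untreated and 10.3 ± 2.33 CPM in treated BR1-BR4. The fitted value was -0.92 on the log2 scale (SE 0.29, adjusted p = 0.271), so it did not pass over all genes. In BR7-BR10 its means were 22.4 ± 5.25 and 20.3 ± 5.29 CPM. Pla2g4a, the cytosolic enzyme that prefers arachidonic acid, had group means between 46.7 and 51.1 CPM. Pla2g2a had 2.66 to 5.09 CPM and Pla2g1b 2 UMIs in all sums together, and the receptor gene Pla2r1 was not analysed here. Of the secreted phospholipases, Pla2g10, Pla2g12a and Pla2g5 were therefore the genes with enough molecules to test. No gene of this system passed with Bch in either set. Ptges, a prostaglandin E synthase gene, had a value of 0.87 in BR7-BR10 (SE 0.47), Acsl4 of 0.70 (SE 0.44) and Pla2g12a of -0.32 (SE 0.15). In BR1-BR4, Pnpla8, an intracellular phospholipase gene, had a value of -0.57 (SE 0.25) and the acyltransferase gene Mboat2 of -0.88 (SE 0.38).

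**Figure D4:**
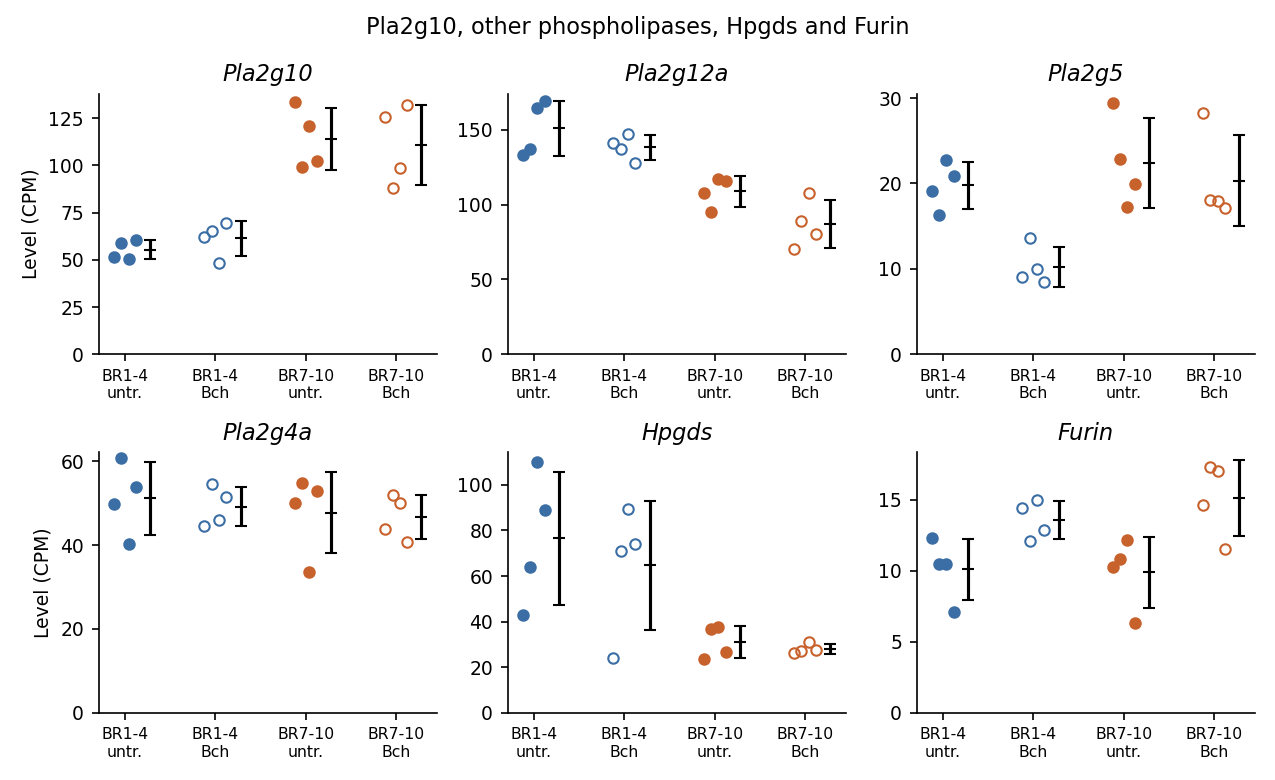
Levels (TMM-normalised CPM, linear axes from 0, a separate scale per panel) of Pla2g10, 3 other phospholipase genes, Hpgds and Furin in the 4 groups, with points for mice (filled untreated, open Bch-treated) and black bars for the mean ± SD. Pla2g10 is higher in BR7-BR10, Pla2g12a and Hpgds have lower means there, and Pla2g5 is lowest in Bch-treated BR1-BR4.

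Genes of other secreted growth factors were set beside the 3 genes as a further list of 35. Of these, 14 were tested between the untreated sets and 0 passed, which is near the 1.64% of all 9159 genes that passed. The median difference of the 14 was 0.068 on the log2 scale, beside -0.016 over all tested genes. The medians were 0.19 over the 4 tested PDGF system genes, -0.18 over the 16 tested FGF system genes and 0.041 over the 24 tested phospholipase and eicosanoid genes, each with the chosen gene included. Mydgf, a myeloid-derived growth factor gene, had a value of 0.36 (SE 0.12), Gdf15 of -0.72 (SE 0.28) and Hdgf of -0.26 (SE 0.12). With Bch, Tgfb1, a transforming growth factor gene, had values of 0.47 (SE 0.26) in BR1-BR4 and 0.56 (SE 0.33) in BR7-BR10. Grn had a value of 0.25 (SE 0.14) and Ccn2 of -0.84 (SE 0.50) in BR1-BR4, and Vegfa of 0.30 (SE 0.20) and Tff3 of 0.23 (SE 0.16) in BR7-BR10. None of these passed the test.

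**Figure D5:**
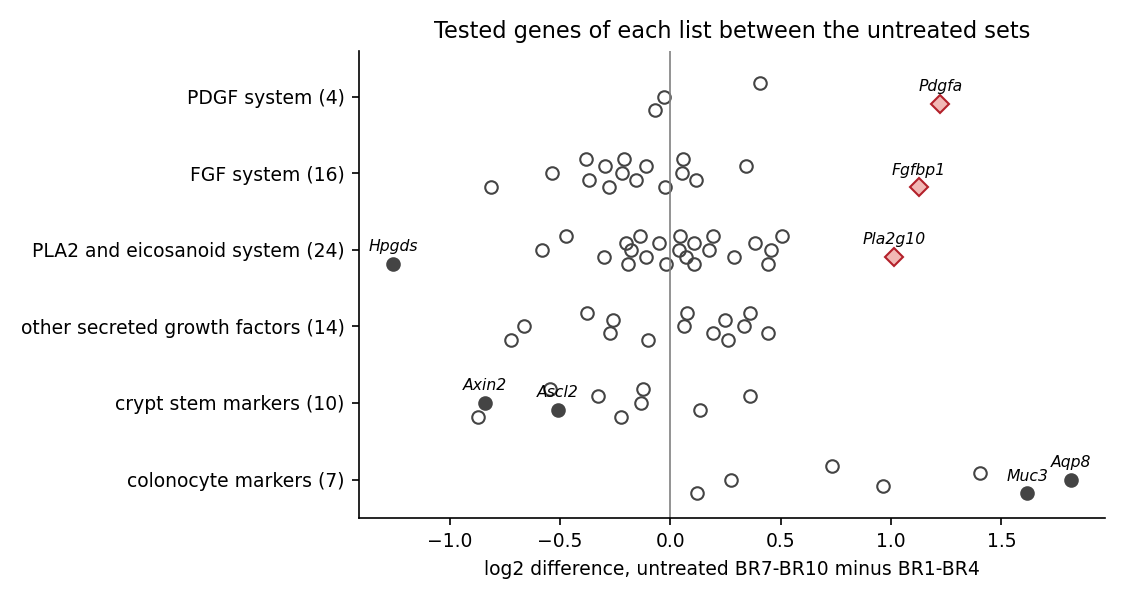
Log2 difference between the untreated sets (BR7-BR10 minus BR1-BR4) for every tested gene of 6 lists, with the number tested in brackets, pale red diamonds for Pdgfa, Fgfbp1 and Pla2g10, which were chosen for this difference and are shown for reference with no test, and circles for the other genes, filled where the adjusted p was below 0.05. Hpgds at -1.26 is the filled circle of the first 4 lists, and the colonocyte markers all lie above 0.

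Some markers of cell state differed between the sets as well. All 12 listed crypt stem cell markers were detected, and their summed level was 982 to 1163 CPM in untreated BR1-BR4 and 831 to 887 CPM in untreated BR7-BR10. Over all 9159 genes, 0.972% were called higher and 0.666% lower in BR7-BR10. Of 10 tested stem cell markers, 2 were called lower: Ascl2 fell by 0.51 on the log2 scale (adjusted p = 0.0319) and Axin2 by 0.84 (adjusted p = 0.0472). Lgr5, the gene behind the sort, had a value of -0.87 (adjusted p = 0.0592), and of 0.25 in the treated cells. Colonocyte markers summed to 805 to 1272 CPM and 839 to 1741 CPM, with 2 of 7 tested genes higher in BR7-BR10: Aqp8, a water channel gene, by 1.81 (adjusted p = 0.0321) and the mucin gene Muc3 by 1.62 (adjusted p = 0.0170). Both colonocyte genes had few counts in untreated BR1-BR4, at 6.37 ± 2.62 CPM for Aqp8 and 5.91 ± 2.46 CPM for Muc3. The calls of these stem cell and colonocyte markers depended on individual mice. Ascl2 no longer passed without BR1, BR2, BR4, BR7 or BR8 (adjusted p up to 0.152) and Axin2 without any mouse but BR10 (up to 0.207). Muc3 no longer passed without BR1, BR4 or BR8 (up to 0.0873), nor Aqp8 without BR1, BR3, BR4, BR7 or BR9 (up to 0.135).

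Enteroendocrine markers summed to 302 to 489 CPM in untreated BR1-BR4 and 516 to 1072 CPM in untreated BR7-BR10, where 0 of 8 tested genes passed. Goblet markers summed to 4409 to 6799 CPM and 3509 to 9034 CPM, with 0 of 9 past the test. Over all genes 1.64% passed, so both counts are near that share. Tuft cell markers summed to at most 22.7 CPM in any sum, the 5 mesenchymal markers listed in the table to at most 9.42 CPM and the 4 immune and endothelial markers to at most 3.27 CPM, with Ptprc at 0 in all untreated BR7-BR10 sums. None of the genes of these 3 lists had enough counts to be tested. As sums, stem cell, colonocyte, goblet and enteroendocrine markers were thus abundant, tuft cell markers were low, and mesenchymal and immune markers were near 0. The colonocyte sum was carried by few genes, with Car1 at 705 ± 187 CPM and Guca2a at 245 ± 22.8 CPM in untreated BR1-BR4. Of the other colonocyte markers, Ceacam20 was at 0 in all untreated sums and Slc37a2 at 0 in all treated sums. The summed stem cell and enteroendocrine levels did not overlap between the untreated sets, in which Pdgfa, Fgfbp1 and Pla2g10 did not overlap either. In the Bch-treated sums, where the 3 genes were also apart, the enteroendocrine levels did overlap (313 to 567 and 463 to 1157 CPM). The treated stem cell levels (975 to 1142 and 745 to 930 CPM) and colonocyte levels (629 to 1202 and 1266 to 1574 CPM) did not. The part of these markers in the set difference was not tested.

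Of each marker list, the genes with the 3 smallest p in a comparison that did not pass are given by value, on the log2 scale. Between the untreated sets these were, besides Lgr5, the colonocyte gene Guca2a (0.73), the enteroendocrine genes Chga (0.69), Pyy (1.07) and Insl5 (1.80), and the goblet cell genes Agr2 (0.63), Muc2 (0.63) and Clca1 (1.35). Counted over all tested genes of a list, 7 colonocyte markers were higher and 0 lower in BR7-BR10, with 5 at an unadjusted p under 0.05. The counts were 7 higher and 1 lower for enteroendocrine markers, 7 and 2 for goblet markers, and 2 and 8 for stem cell markers. With Bch, 0 marker genes passed in either set, beside 0.021% of all genes in BR1-BR4 and 0% in BR7-BR10. In BR1-BR4 the values were -0.41 for Car1, -0.76 for Krt20, -0.17 for Guca2a, 0.43 for Gcg, 0.20 for Pyy and for Chga, -0.38 for Spink4, 0.21 for Muc2 and 0.33 for Spdef, and for the stem cell markers -0.66 for Lgr5, -0.31 for Axin2 and 0.12 for Ascl2. In BR7-BR10 they were 0.21 for Guca2a, 0.27 for Muc3, 0.20 for Aqp8, -0.81 for Gcg, 0.43 for Chgb, -0.24 for Cck, 0.77 for Fcgbp, 0.45 for Muc2 and 0.23 for Tff3, and for the stem cell markers -0.32 for Ascl2, 0.49 for Lgr5 and 0.24 for Slc12a2. Pdgfa, Fgfbp1 and Pla2g10 had Bch values of -0.24 to 0.16 beside these.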

How the data were processed

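RNA of sorted Lgr5-EGFP-positive colonoid cells was sequenced as 32 libraries of 8 mice. The authors deposited UMI counts per gene, without normalization, for which the study's methods name Drop-seq tools and the mouse build GRCm38 (the submitters' processing notes name GRCh38 only). The handling of strand and multiply matching reads was not given in the sources used here. All 32 columns were mapped, and blanks of 1520 genes in technical replicate 2 were read as 0. Technical replicates were summed, and 0 UMIs in a sum allow up to 0.741 to 5.38 CPM (3 UMIs, counting error only).

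Tests used edgeR 4.0.16 in R 4.3.3 (filterByExpr, TMM, robust quasi-likelihood test, Benjamini-Hochberg adjusted p of 0.05) with the mouse as a block for Bch, in each set separately, and no block between untreated sets. SEs are the log2 difference over the square root of F, intervals are approximate 95% ranges from the SE, and ratios used a prior count of 2. DESeq2 1.42.0 and other settings were alternatives. The code was tested on simulated data. Cultures with the same number came from the same mouse, and the deviations of such pairs correlated at -0.020 to 0.24 across genes, with 6 of 8 untreated cultures closest to their own partner.

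The 3 genes and all lists were chosen with earlier results of these data known. Named were the 3 genes, their direct relatives, the 3 genes of each list with the smallest p in each Bch comparison and between the untreated sets, all called list genes, and the 3 genes most like each chosen gene. Only mouse samples were analysed here. Gene positions came from GENCODE M21 and RefSeq tables of GRCm38.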

Additional observations from a re-analysis of the deposited data

Results flagged for a closer look

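Fgfbp1 in Bch-treated BR1-BR4 was set apart by BR1, at 149 CPM against 94.5 to 99.5 CPM in BR2, BR3 and BR4. The gap of BR1 to the nearest mouse was 0.910 of the range of the group, above Dixon's 95% limit for 4 samples. BR1 was also the highest of its set without Bch, at 133 CPM, and its untreated pool held the most cells of all (13114). Of 18 groups of 4 examined in this way 1 stood out, and chance gives about 1 in 20.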

How the results depend on the processing

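Under all alternatives tried, the set differences of Pdgfa, Fgfbp1 and Pla2g10 stayed positive (16 of 16 alternatives each). Their range outside leave-one-out settings was 1.13 to 1.31, 1.07 to 1.17 and 0.84 to 1.10 on the log2 scale, where 0.84 for Pla2g10 came from the Bch-treated sums, an alternative chosen after seeing the data. Without the replicate block, which pairs the cultures of a mouse, 0 genes were called in BR1-BR4 in place of 2 (478 at an unadjusted p under 0.05). The Bch changes without the block were -0.16, -0.012 and 0.14 in BR1-BR4 and -0.23, -0.078 and -0.048 in BR7-BR10 for Pdgfa, Fgfbp1 and Pla2g10, and the block changed no other count of calls. The 2 genes called in BR1-BR4 became 14 with DESeq2, 88 without the filter on low counts, 9 from technical replicate 1 alone, 0 after thinning to the lowest total, 0 with all 8 mice in 1 fit, and 0 to 19 in leave-one-out fits. In BR7-BR10 the count was 2 after thinning and 0 to 4 in leave-one-out fits. Between the untreated sets it was 234 without the filter and 74 to 210 in leave-one-out fits, and for the difference of the changes it was 1 without the filter. In the 4 lists of PDGF, FGF, phospholipase and other growth factor genes, without markers, 1 gene besides the 3 genes was called between the untreated sets, and the number was 3 without the filter, 2 after thinning, 2 in the Bch-treated sums and 1 to 2 in leave-one-out fits. The cause of these shifts was not tested.

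The Bch changes of the 3 genes were not all stable in sign. In BR1-BR4, Fgfbp1 kept its sign in 8 of 13 alternatives (-0.064 to 0.068), Pdgfa in 12 of 13 (-0.26 to 0.0092) and Pla2g10 in 13 of 13. In BR7-BR10, Pla2g10 kept it in 9 of 13 (-0.18 to 0.041), Fgfbp1 in 12 of 13 (-0.20 to 0.027) and Pdgfa in 13 of 13. The differences of the changes kept it in 14 of 16 for Pdgfa (-0.23 to 0.058), 14 of 16 for Fgfbp1 (-0.20 to 0.043) and 16 of 16 for Pla2g10.

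Other uncalled values changed sign as well. For the Bch change in BR1-BR4 these were St14 (0.096 from technical replicate 2 alone, -0.28 to 0.037 in leave-one-out fits) and Pyy (-0.0015 to 0.38 in leave-one-out fits). In BR7-BR10 they were St14 (-0.0075 with DESeq2, -0.0023 with its size factors, -0.062 from technical replicate 2 alone, -0.15 to 0.16 in leave-one-out fits) and, in leave-one-out fits, Pcsk7 (-0.23 to 0.049), Aqp8 (-0.19 to 0.49) and Cck (-0.36 to 0.018). Between the untreated sets, Lgr5 went from -0.87 (SE 0.24) to 0.25 in the Bch-treated sums and Pcsk7 from 0.40 to -0.019, and the cause was not tested. The others were Furin (0.18) and St14 (0.13) in the Bch-treated sums, St14 from technical replicate 2 alone (0.11) and, in leave-one-out fits, Furin (-0.24 to 0.13) and St14 (-0.14 to 0.11).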
